A study of Homo sapiens with 6 samples.

Results

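Histone lysine demethylases, the enzymes that take methyl groups off histone tails, were examined in the parental ZR-75-1 line, human luminal breast cancer cells that carry the oestrogen receptor (ER), after treatment with abemaciclib, an inhibitor of CDK4/6, or with its solvent DMSO. The members were set by name: 10 genes, namely KDM1A, KDM3A, KDM4A, KDM4B, KDM4C, KDM5A, KDM5B, KDM5C, KDM6A and KDM6B, among the 60656 genes of the count table. All 10 were found by their Ensembl identifier and all 10 had enough counts to be tested. Both groups were kept for 4 days in the same serum-containing medium. The DMSO group (3 libraries) had the solvent alone, at an equal volume, and the abemaciclib group (3 libraries) had 500 nM of the drug. The libraries were made with a 3′ mRNA kit, which primes on the poly(A) tail and yields reads near it. Counts from such a kit do not grow with the length of the transcript, so levels of different genes are set side by side without a length correction. Such comparisons between genes remain approximate, since how fully each gene's 3′ end was captured and counted was not measured. In bulk libraries, fewer cells of a kind and less RNA per cell cannot be told apart.

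The members act on different marks. KDM5A, KDM5B and KDM5C remove trimethyl and dimethyl groups from H3K4, a mark of active promoters, and KDM1A (LSD1), a flavin-dependent enzyme, removes dimethyl and monomethyl groups from the same residue. KDM4A, KDM4B and KDM4C act on trimethylated H3K9 and H3K36, KDM3A on dimethylated and monomethylated H3K9, and KDM6A (UTX) and KDM6B (JMJD3) on trimethylated H3K27, the Polycomb mark. All but KDM1A carry a JmjC domain and need iron, oxoglutarate and oxygen. In luminal breast cells, KDM5A is known as a binding partner of the retinoblastoma protein (Rb), and KDM4B as an oestrogen-induced gene whose product assists the ER.

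Total counts per library lay between 3317860 and 4013156, and a count of 0 allowed up to 3 counts, or 0.748 to 0.904 CPM (counts scaled to the library total), with counting error alone considered. The 8 luminal epithelial markers (among them ESR1, GATA3, KRT8 and EPCAM) summed to 7421 to 7896 CPM with DMSO and 8272 to 9459 CPM with abemaciclib. They did not all move one way: KRT19 was at 2994 to 3383 CPM with DMSO and 3791 to 4550 CPM with abemaciclib, whereas KRT18 was at 654.3 to 722.0 CPM and 503.7 to 557.2 CPM, and EPCAM overlapped between the groups. The 3 basal markers KRT5, KRT14 and TP63 were at 0 in all 6 libraries, as were PTPRC, CD3E, COL1A2, PDGFRB and PECAM1. Of the remaining leukocyte, fibroblast and endothelial markers, COL1A1 was at 10.2 to 15.7 CPM in all 6 libraries, VWF reached at most 1.49 CPM and CD68 at most 0.301 CPM. The response to the drug was visible in MKI67, a proliferation marker, which fell by 6.71 on the log2 scale (s.e. 0.17, adjusted P = 4.61e-22). Levels below are CPM scaled by the TMM method, and values after ± are SDs over the 3 libraries of a group. A log2 change is the log2 fold change of abemaciclib against DMSO from edgeR's quasi-likelihood test and is given with its standard error (s.e.). P was adjusted over the 10863 genes tested, with a threshold of 0.05.

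The KDM4 and KDM5 subfamilies each had 1 member that rose, and for KDM5A no change was detected. KDM4B rose 1.81-fold and KDM5B rose 1.71-fold, whereas KDM5A had a fold of 1.08. Of the 10 members, 2 were called higher and 0 lower at the threshold. This makes 20% of the members, against 25.7% of all genes tested (12.5% higher and 13.3% lower), so the share of members called was near the background. Among tested genes within the members' range of mean level (6.81 to 394 CPM), 27.7% were called. DESeq2 also gave 2 higher and 0 lower, and at an unadjusted P under 0.05 there were 2 higher and 1 lower, the last being KDM1A. The median log2 change was 0.07 over the members and −0.0018 over all genes tested. The groups did not overlap in 4 of the 10 members (KDM4B, KDM5B, KDM1A and KDM3A), against 39.1% of all genes tested.

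**Figure D1:**
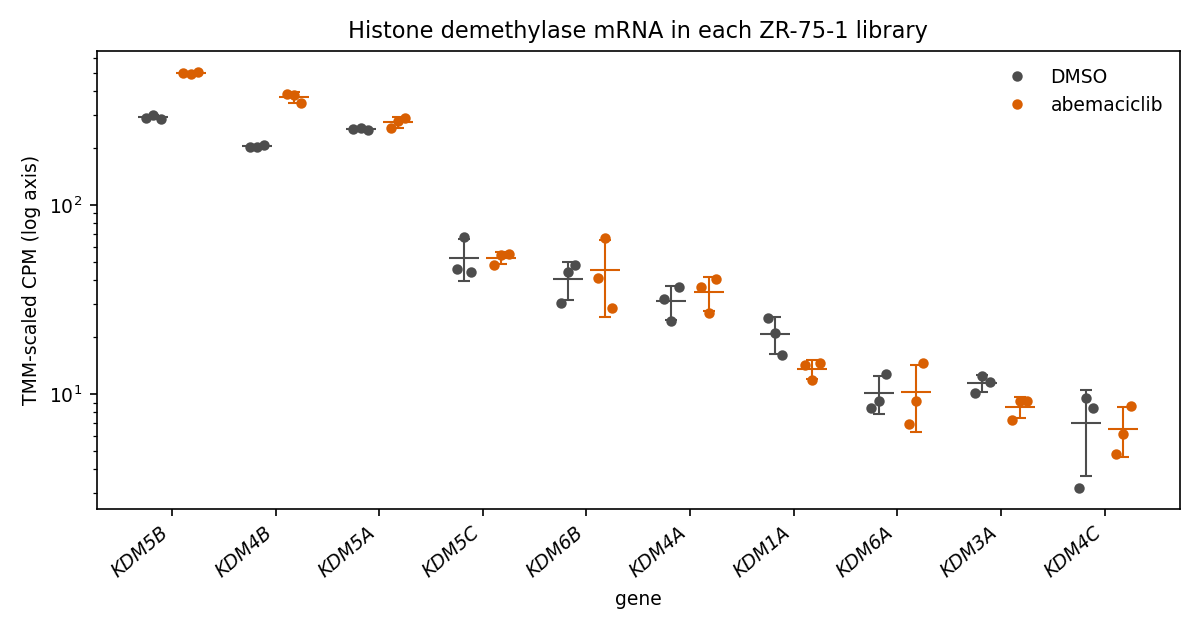
Level of each demethylase (TMM-scaled CPM, log axis) in the 3 DMSO libraries (grey) and the 3 abemaciclib libraries (orange). Points are libraries, and bars give the mean and SD (n = 3). KDM5B and KDM4B separate fully between the groups, with every abemaciclib library above every DMSO library, while the points of KDM5A overlap.

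The start-site regions of KDM4B, KDM5B and KDM5A are shown because the first pair rose and the last did not. Each is 250 bases before to 50 bases after the RefSeq start (GRCh38.p14), 5′ to 3′ on the strand of the gene, with the hypoxia response element cores ACGTG and GCGTG in capitals on either strand. KDM4B is shown for chr19:4968863-4969162 (plus strand), KDM5B for chr1:202808372-202808671 (minus strand) and KDM5A for chr12:389271-389570 (minus strand).
KDM4B: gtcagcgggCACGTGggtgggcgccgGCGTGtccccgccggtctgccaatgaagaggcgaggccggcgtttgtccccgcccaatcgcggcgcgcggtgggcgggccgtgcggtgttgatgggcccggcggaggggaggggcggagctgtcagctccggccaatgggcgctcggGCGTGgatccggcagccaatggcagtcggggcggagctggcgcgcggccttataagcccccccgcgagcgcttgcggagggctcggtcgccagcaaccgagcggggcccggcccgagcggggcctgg
KDM5B: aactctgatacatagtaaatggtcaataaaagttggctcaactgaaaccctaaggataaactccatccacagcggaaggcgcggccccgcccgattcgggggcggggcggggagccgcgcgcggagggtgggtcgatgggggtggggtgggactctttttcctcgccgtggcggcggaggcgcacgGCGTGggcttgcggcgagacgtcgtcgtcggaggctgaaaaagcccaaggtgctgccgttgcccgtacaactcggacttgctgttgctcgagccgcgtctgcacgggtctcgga
KDM5A: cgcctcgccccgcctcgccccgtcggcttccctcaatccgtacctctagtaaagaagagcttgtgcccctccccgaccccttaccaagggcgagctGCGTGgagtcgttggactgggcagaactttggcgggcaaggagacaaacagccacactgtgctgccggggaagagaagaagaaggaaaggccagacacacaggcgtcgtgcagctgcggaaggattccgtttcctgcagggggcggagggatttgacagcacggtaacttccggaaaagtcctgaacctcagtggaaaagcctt

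The 3 windows differed in composition, with 76.7% G and C in KDM4B, 63.7% in KDM5B and 60.0% in KDM5A. The hypoxia core was found 4 times in KDM4B, where the CACGTG palindrome counts once on each strand, and once each in KDM5B and KDM5A. Members that were not called had as many or more, with 5 in KDM4C, 5 in KDM6A and 4 in KDM1A. The remaining members had at most 1 per window. Over all 12 windows of the 10 members it was present in 10, against 48.4% of the 35116 windows of the same length in the table, which are not matched for base composition. The windows of KDM3A overlap and share their site, and KDM6B had the core in 1 of its 2 windows and KDM5C in none. None of the 12 windows held an E2F motif in the forms TTTCCCGC, TTTCGCGC, TTTGCCGC or TTTGGCGC (3.31% of all windows), the cell cycle homology motif TTTGAA (15.2%) or the oestrogen response element, GGTCA and TGACC with any 3 bases between (0.057%), on either strand. Other E2F forms were not searched, and the KDM5A window holds TTTGGCGG, which differs from TTTGGCGC in its last base. The motif matches describe letters in a short window and say nothing about binding or about distal elements.

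KDM5A, on chromosome 12 of GRCh38 from 280057 to 389320 (28 exons in its canonical transcript), had 252.3, 256.1 and 248.7 CPM in the 3 DMSO libraries and 253.5, 278.0 and 287.5 CPM in the 3 abemaciclib libraries. The DMSO libraries lay close together and abemaciclib replicate 1 fell within their range, so the groups overlapped. The means were 252.4 ± 3.69 CPM and 273.0 ± 17.5 CPM. The log2 change was 0.11 (s.e. 0.10, edgeR's adjusted P = 0.432), with a 95% interval from −0.08 to 0.31, that is a fold between 0.943 and 1.24. KDM5A had 821 to 1127 counts per library, and a change of the size seen in KDM4B or KDM5B lies outside its interval. RB1, which encodes its partner Rb, fell from 56.2 ± 7.32 CPM to 34.0 ± 2.24 CPM, with a log2 change of −0.73 (s.e. 0.16, adjusted P = 0.00104).

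KDM5B, a paralogue of KDM5A known for its high level in breast cancers, lies on chromosome 1 from 202724495 to 202808487 and was the most abundant member in both groups. It had 289.2, 299.1 and 284.7 CPM with DMSO and 496.2, 489.7 and 506.4 CPM with abemaciclib. Every abemaciclib library was far above every DMSO library, and the spread within each group was small. The log2 change was 0.77 (s.e. 0.09, adjusted P = 1.55e-07), a fold of 1.71, and the 95% interval of the log2 change ran from 0.59 to 0.96. As large or a larger rise was found in 6.78% of all genes tested. KDM5C, the X-linked paralogue (chromosome X, 53176283 to 53225422), had 45.8, 67.7 and 44.2 CPM with DMSO and 48.1, 54.0 and 54.9 CPM with abemaciclib. The DMSO values were uneven, with replicate 2 above all others, and the groups overlapped. Its log2 change was −0.0057 (s.e. 0.16, adjusted P = 0.986), with an interval from −0.34 to 0.33.

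The balance within the KDM5 subfamily moved towards KDM5B. KDM5A held 43.0%, 41.1% and 43.1% of the subfamily's CPM in the DMSO libraries and 31.8%, 33.8% and 33.9% in the abemaciclib libraries. The share of KDM5B went from 48.0% to 49.3% with DMSO to 59.6% to 62.2% with abemaciclib. Neither share overlapped between the groups, although the level of KDM5A itself did. Shares within a subfamily are tied to each other. The fall in the KDM5A share is therefore not a result apart from the rise of KDM5B. The log2 ratio of KDM5A to KDM5B was −0.21 ± 0.016 with DMSO and −0.87 ± 0.088 with abemaciclib, lower by 0.66 with the drug. An exact permutation test gave P = 0.1, two-sided, the smallest that 3 libraries against 3 allow, and P = 0.233 adjusted over 7 paralogue pairs. The log2 ratio of KDM5B to KDM5C was higher by 0.75 (exact permutation P = 0.1, adjusted 0.233), and that of KDM5A to KDM5C differed by 0.094 (exact permutation P = 1), or by −0.091 without DMSO replicate 2. Summed, the KDM5 subfamily had 577.6 to 622.9 CPM with DMSO and 797.8 to 848.7 CPM with abemaciclib.

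**Figure D2:**
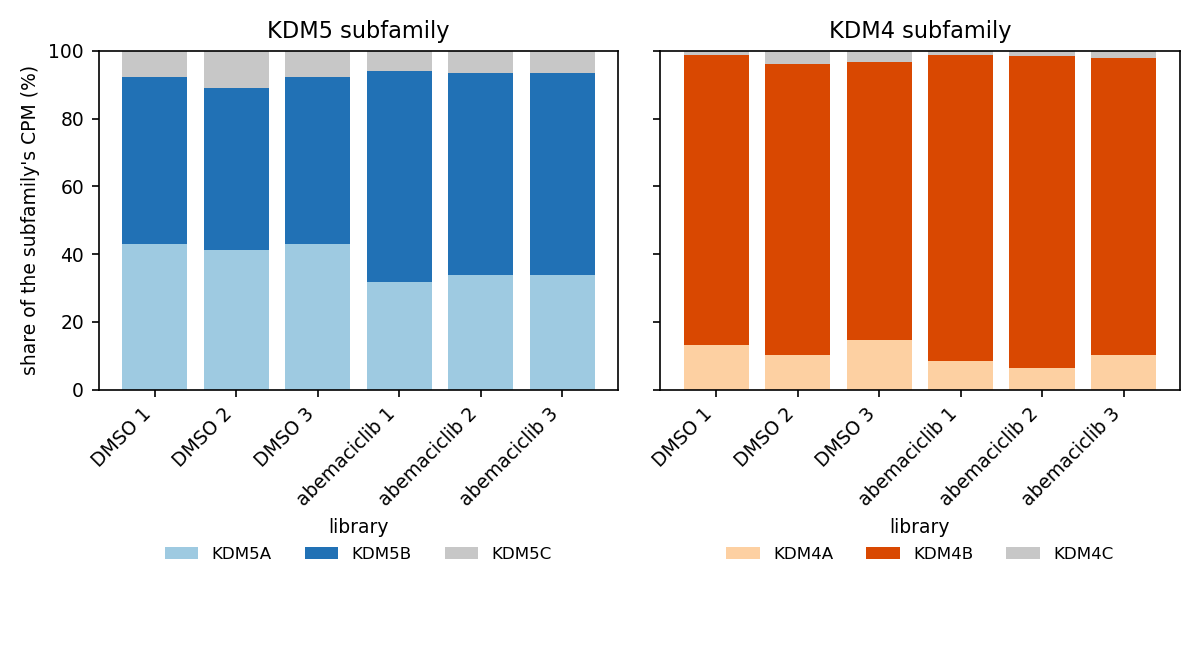
Share (%) of each gene in the summed CPM of its subfamily, 1 bar per library, for KDM5 (left) and KDM4 (right). With abemaciclib the KDM5B share was 59.6% to 62.2% and that of KDM4B 87.5% to 92.0%, both above their DMSO libraries.

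KDM4B, on chromosome 19 from 4969113 to 5153598 (23 exons in its canonical transcript), had the largest rise of the members. Its levels were 202.7, 201.7 and 207.2 CPM with DMSO and 386.9, 379.0 and 343.4 CPM with abemaciclib. The lowest abemaciclib library, replicate 3, was still far above every DMSO library. The log2 change was 0.86 (s.e. 0.10, adjusted P = 6.67e-08), a fold of 1.81 with a 95% interval from 1.58 to 2.08, and 5.25% of all genes tested rose as much or more. ESR1, which encodes the ER, had a log2 change of 0.83 (s.e. 0.10, adjusted P = 2.92e-07), and CCND1, an oestrogen-responsive gene, one of 1.34. The paper describes ER expression as without major change in its ER-positive lines. KRT18, which the paper counts among oestrogen response genes, was lower with abemaciclib, as given above. A link between KDM4B and these genes was not tested. Counts of CCND1 are uncertain, since its 3′ end overlaps that of an antisense neighbour.

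The other KDM4 genes were much less abundant. KDM4A (chromosome 1, 43650149 to 43705518) had 31.6, 24.4 and 37.0 CPM with DMSO and 36.6, 26.6 and 40.5 CPM with abemaciclib, with groups that overlapped. Its log2 change was 0.16 (s.e. 0.20, adjusted P = 0.625), with an interval from −0.25 to 0.56. KDM4C (chromosome 9, 6720863 to 7175648) had 3.19, 9.51 and 8.48 CPM with DMSO and 4.84, 6.17 and 8.65 CPM with abemaciclib. It was the least abundant member, with 11 to 32 counts per library. Its interval, from −0.96 to 0.76, leaves changes of the size seen in KDM5B within reach. KDM4B made up 82.0% to 85.6% of the subfamily's CPM with DMSO and 87.5% to 92.0% with abemaciclib. The log2 ratio of KDM4A to KDM4B was −2.72 ± 0.28 with DMSO and −3.42 ± 0.37 with abemaciclib. It was lower by 0.70 with the drug, and the groups did not overlap (exact permutation P = 0.1, adjusted 0.233). For KDM4B to KDM4C the ratio was higher by 0.86 and the groups overlapped (exact permutation P = 0.2, adjusted 0.35). Without DMSO replicate 1, in which KDM4C was lowest, that difference was 1.31. For KDM4A to KDM4C the ratio differed by 0.16 (exact permutation P = 0.9), by 0.64 without DMSO replicate 1 and by −0.26 without DMSO replicate 2.

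KDM1A, the catalytic subunit of the CoREST complex, lies on chromosome 1 from 23019443 to 23083689. It had 25.2, 21.1 and 16.1 CPM with DMSO and 14.2, 11.8 and 14.6 CPM with abemaciclib. Every abemaciclib library was below every DMSO library, by a narrow margin against DMSO replicate 3. The log2 change was −0.62 (s.e. 0.25), with an unadjusted P = 0.0174 and an adjusted P = 0.0624 from edgeR, so it missed the threshold. The call depended on 1 library: without DMSO replicate 3 the log2 change was −0.78 and the adjusted P = 0.0331, and over all alternatives the adjusted P ranged from 0.0331 to 0.275. KDM3A, a hypoxia-inducible H3K9 demethylase on chromosome 2 from 86440647 to 86492716, had 10.2, 12.5 and 11.5 CPM with DMSO and 7.26, 9.13 and 9.19 CPM with abemaciclib. Its groups did not overlap either, but with 24 to 42 counts per library the log2 change of −0.41 (s.e. 0.31, adjusted P = 0.368) was within the error.

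The H3K27 demethylases gave no detectable change. KDM6B, on chromosome 17 from 7834217 to 7854796, had 30.2, 44.3 and 47.9 CPM with DMSO and 40.8, 67.1 and 28.4 CPM with abemaciclib. Its abemaciclib libraries were scattered, with replicate 2 far above replicate 3, and the groups overlapped. The log2 change was 0.17 (s.e. 0.22, adjusted P = 0.645), and without abemaciclib replicate 2 it was −0.24. KDM6A, on chromosome X from 44873188 to 45112779, had 8.41, 9.21 and 12.7 CPM with DMSO and 6.96, 9.13 and 14.6 CPM with abemaciclib. Its log2 change was 0.022 (s.e. 0.33), with an interval from −0.65 to 0.70. The log2 ratio of KDM6A to KDM6B differed by −0.12 between the groups (exact permutation P = 0.9), and by 0.25 without abemaciclib replicate 2.

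In order of level, KDM5B, KDM5A and KDM4B led the DMSO libraries, with means of 291.0, 252.4 and 203.9 CPM, and their ranges over the 3 libraries did not overlap. KDM4B took second place with abemaciclib, and the order was KDM5B at 497.4, KDM4B at 369.8 and KDM5A at 273.0 CPM, again without overlap. These 3 genes held 80.1% to 82.8% of the members' CPM with DMSO and 86.2% to 87.7% with abemaciclib. Below them came KDM5C, KDM6B, KDM4A and KDM1A in both groups. The last places went to KDM3A, KDM6A and KDM4C with DMSO and to KDM6A, KDM3A and KDM4C with abemaciclib. Among these lower genes the ranges of neighbours in the order overlapped, except those of KDM1A and KDM3A with DMSO and of KDM4A and KDM1A with abemaciclib. The sum over the 10 members was 920.9 ± 23.4 CPM with DMSO and 1311 ± 17.9 CPM with abemaciclib. For the 10 members no annotated exon of another gene lay in the last 500 bases of the canonical transcript's genomic end, and the related genes in the table (KDM3AP1, KDM4A-AS1 and KDM5C-IT1) had 0 to 5 counts per library.

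Outside these 10 genes, 1 other lysine demethylase passed the threshold. Of 15 listed, 13 were tested, 1 was called higher (KDM2A) and 0 lower (0 at an unadjusted P under 0.05 and 0 by DESeq2), and the median log2 change was −0.12. The share called was 7.69%, against 25.7% of all genes tested. For the scarcest of them larger changes lie within the error, as for KDM8, named here after its values were seen, with 5 to 16 counts per library and an interval of the log2 change from −1.89 to 0.43. KDM2A, an H3K36 demethylase that binds CpG islands, went from 578.7 ± 34.9 CPM to 690.6 ± 65.0 CPM, a log2 change of 0.25 (adjusted P = 0.0451). Its call was lost under 8 of 12 alternatives, among them each fit without a single library other than abemaciclib replicate 3, with adjusted P from 0.00197 to 0.208 over all 12.

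**Figure D3:**
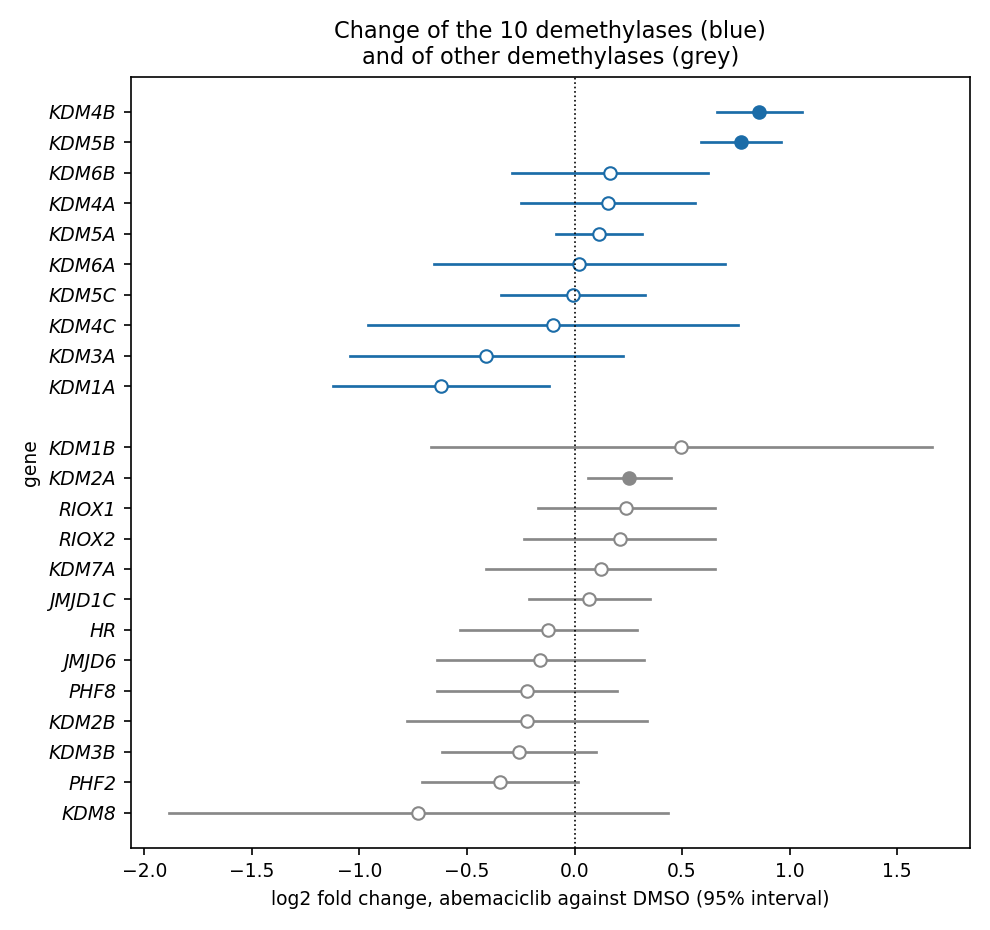
Log2 change of abemaciclib against DMSO with its 95% interval for the 10 members (blue) and the 13 other demethylases tested (grey). Filled points passed the threshold: KDM4B (0.86), KDM5B (0.77) and KDM2A (0.25).

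The enzymes that lay the same marks were set beside the demethylases. Of 20 H3K4 methyltransferase genes and complex partners, 1 was called higher and 4 lower, with a median of −0.10. The list's share called was 25%, near the 25.7% of all genes tested. KMT2D, a catalytic subunit, had a log2 change of 0.64 (adjusted P = 0.0172), though its 3′ end overlaps a lncRNA on the opposite strand and it missed the threshold when DMSO replicate 2 or abemaciclib replicate 2 was left out. CXXC1, the CpG-binding subunit of the SETD1 complexes, fell by 0.64 (adjusted P = 0.00351), and its call was kept under all 12 alternatives. SMYD3 fell by 0.69, and the smaller changes of ASH2L (−0.43) and HCFC1 (−0.29) were close to the threshold. SMYD3 lost its call under 4 of 12 alternatives, HCFC1 under 7 and ASH2L under 9, and with DESeq2 1 gene of this list was lower.

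Of 10 H3K9 methyltransferase genes, WIZ, a partner of the EHMT enzymes, was higher (log2 change 0.54, adjusted P = 0.0201). The call of WIZ was lost without DMSO replicate 2 or abemaciclib replicate 2. TRIM28, the corepressor that recruits SETDB1, fell by 0.56 (adjusted P = 0.000426), and the median of the list was −0.08. Calls made up 20% of the list, against 25.7% of all genes tested. The 3′ end of TRIM28 overlaps a microRNA gene on the same strand. Of 7 H3K36 methyltransferase genes, NSD2 fell from 129.0 ± 12.7 CPM to 57.1 ± 3.34 CPM, a log2 change of −1.18 (adjusted P = 2.35e-08). No gene of that list was called higher (1 at an unadjusted P under 0.05, 0 by DESeq2). In this H3K36 list 14.3% were called, against 25.7% of all genes tested.

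The partners of KDM1A in the CoREST complex showed no call in either direction, where 25.7% of all genes tested were called. Of 13 listed, 12 were tested, with 0 higher and 0 lower from edgeR (1 each way at an unadjusted P under 0.05, 0 by DESeq2) and a median log2 change of −0.06. The most abundant were GSE1, at 456.1 and 457.6 CPM, and HMG20B, at 251.6 and 213.5 CPM, each given as the DMSO and then the abemaciclib mean. The 3′ end of GSE1 overlaps GINS2 on the opposite strand, which leaves its counts uncertain.

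**Figure D4:**
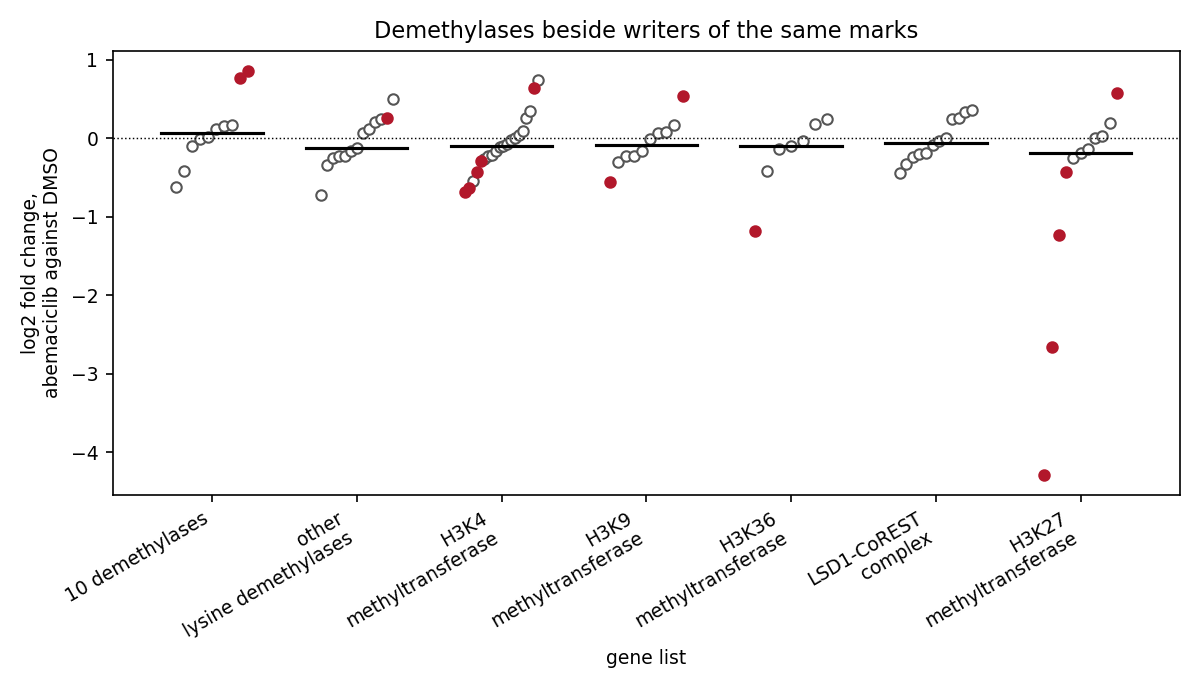
Log2 fold change of abemaciclib against DMSO for each tested gene of the 10 demethylases and of 6 other gene lists. Red points passed the threshold, open points did not, and black lines give the medians, which lay between −0.18 and 0.07.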

How the data were processed

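RNA was measured in 3 DMSO and 3 abemaciclib libraries, grouped by the treatment in their labels. The study's methods call the replicates independent biological ones. The authors trimmed single-end reads, aligned them to hg38 with STAR 2.7.5b and made gene counts with featureCounts 2.0.1 and GENCODE gene models. Raw counts were deposited without a filter, and no source used here states whether strand was used. Symbols matched 60401 of 60656 identifiers. Gene positions were read from a GENCODE annotation of GRCh38 newer than that of the counting.

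Abemaciclib was compared with DMSO, with no covariate, using edgeR 4.0.16 under R 4.3.3, with its default expression filter (filterByExpr), TMM scaling, the quasi-likelihood test (glmQLFit and glmQLFTest) and Benjamini–Hochberg adjustment over the 10863 genes tested. Standard errors are the log2 fold change over the square root of F, and 95% intervals use the test's degrees of freedom. Paralogue ratios add 0.5 CPM to each level. The script was tested on simulated data. Replicate pairs differed by more than sampling noise (chi-square per degree of freedom 2.83 to 7.41). The pairs with abemaciclib replicate 3 gave 6.98 and 7.41, and the other pairs 2.83 to 4.21. Without that library 1412 genes were called higher and 1529 lower. Promoter windows came from RefSeq for all 10 members. Members and lists were chosen with earlier results of these data known. In each list, genes past the threshold were named, or the 2 most abundant where none passed. The alternatives were DESeq2 1.42.0, its size factors in edgeR, total counts only, no filter, a minimum of 10 counts in all libraries, the replicate number as a block, leaving out 1 library at a time, and an offset of 2 CPM.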

Additional observations from a re-analysis of the deposited data

How the results depend on the processing

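Alternatives gave 217 values for the members, their ratios and the counts over all genes, and 202 were scored as kept. Kept means the same direction and call for a fold change, and a shift under 1 SD of that ratio for a ratio. A ratio with a wide spread can therefore turn its sign and still be scored as kept. For a count of calls, kept means staying within a fixed factor of the reported count. Counts over all genes ran from 981 to 1412 higher and from 1132 to 1529 lower, all scored as kept. For the other lists and the check genes, 27 of 192 shifted, all of them counts of calls. Among these, H3K36 methyltransferase genes called lower were 2 without DMSO replicate 3, and H3K4 methyltransferase genes called higher were 2 without abemaciclib replicate 3, where 1 H3K36 gene was also higher and 1 CoREST gene lower. KDM4B and KDM5B were called under all 12 alternatives, with log2 fold changes of 0.83 to 0.91 and 0.76 to 0.79. KDM5A was not called under any, at 0.08 to 0.17 (adjusted P from 0.286 to 0.620). When single libraries were left out, 2 members were higher and 0 to 1 lower (KDM1A, −0.78 to −0.46), and the sign turned for 4 uncalled members: KDM4C (−0.45 to 0.17), KDM5C (−0.12 to 0.22), KDM6A (−0.32 to 0.23) and KDM6B (−0.24 to 0.42). So did the log2 ratio differences of KDM5A to KDM5C (−0.091 to 0.19), KDM4A to KDM4C (−0.26 to 0.64) and KDM6A to KDM6B (−0.69 to 0.25), and that of KDM4B to KDM4C ran from 0.59 to 1.31. The sign of KDM5C also turned with DESeq2 (0.00088), and under the replicate block those of KDM5C (0.011) and KDM6A (−0.012) did. The cause was not tested. Deviations of same-numbered libraries correlated at −0.089 to 0.0070 across genes, and those of differently numbered ones at −0.055 to 0.096. This gave no sign of pairing, but 3 libraries per group are too few to settle whether they were paired. Under the block 1139 genes were higher and 1280 lower, against 1354 and 1442 without it, with the same 2 members called. DESeq2 gave 1069 and 1165. The largest shift of the median of all genes, without a filter on low counts, was to −0.026. Depth limits the members under about 12 CPM, KDM3A, KDM6A and KDM4C, whose standard errors were 0.31 to 0.42.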

Other observations

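Writers of H3K27 methylation, the mark that KDM6A and KDM6B remove, held the largest falls among the lists set beside the demethylases. Of 11 Polycomb repressive complex genes, 4 were lower and 1 higher, and the list's median log2 change was −0.18. Called genes made up 45.5% of this list, against 25.7% of all genes tested. The list is short and was chosen with earlier results of these data known, so no weight is put on this difference. PHF19, an accessory subunit, fell from 53.7 ± 4.96 CPM to 2.77 ± 1.01 CPM with abemaciclib, a log2 change of −4.28 (adjusted P = 1.81e-13, edgeR). EZH2, the catalytic subunit, had a log2 change of −2.66 (adjusted P = 3.48e-12) and EED, whose 3′ end overlaps a microRNA gene, one of −1.23. RBBP7 fell by 0.43, with a 3′ end that overlaps TXLNG on the opposite strand. MTF2, another accessory subunit, had a log2 change of 0.58 (adjusted P = 0.0354), which missed the threshold with DESeq2 and when DMSO replicate 1, DMSO replicate 3 or abemaciclib replicate 2 was left out. EZH1, the paralogue of EZH2, was at 8.62 ± 2.38 CPM with DMSO and 9.90 ± 0.89 CPM with abemaciclib.

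As a description over 6 libraries, the genes whose log2 CPM followed KDM5A most closely among 9738 genes were SRRM1 (Pearson r = 0.988), DDX5 (0.986) and SGMS1 (0.983), none of them called. For KDM4B they were ERGIC1 (0.998), P4HA1 (0.997) and SEZ6L2 (0.997), all 3 called higher. The 6 libraries fall into the same treatment groups for every gene compared, and no test was made.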
